A study of Mus musculus with 6 samples.

Results

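The 10 genes described here belong to the aryl hydrocarbon receptor (AHR) system and to the xenobiotic enzymes next to it: the receptor Ahr, its partners Arnt and Arnt2, its repressor Ahrr, and the enzymes Cyp1b1, Tiparp, Nqo1, Ugt1a6a, Ugt1a7c and Akr1c13. They are the rows with these names among the 30077 gene rows of the deposited table, and all 10 were among the 11255 rows with enough signal to test. They were measured in bEnd.3 cells, a wild-type mouse brain endothelial cell line grown in high-glucose DMEM with fetal bovine serum and antibiotics. A treated group of 3 libraries had been given mitochondria from MLO-Y4, an osteocyte-like mouse cell line, taken up in 100 µl of medium, and a control group of 3 libraries had been given that volume of medium with no mitochondria; RNA was collected after 24 h. How many mitochondria were added is not given in the sources used here. The genes were picked with their difference between these groups known, so their fold changes and p-values are given as a description.

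AHR is a transcription factor of the bHLH-PAS family that waits in the cytoplasm bound to HSP90 until it meets a ligand, such as a polycyclic aromatic hydrocarbon or a tryptophan metabolite. It then enters the nucleus, pairs with ARNT and binds xenobiotic response elements, whose core reads GCGTG, near genes of drug and steroid metabolism. Among the genes it switches on are those of its own brakes: AHRR, which competes with it for ARNT, and TIPARP, a mono-ADP-ribosyltransferase that acts on the receptor. In human brain microvessels, CYP1B1 is known as the major AHR-linked cytochrome P450.

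The promoters of the repressor and of the 3 textbook target enzymes are shown because the data below set these genes side by side. Each run is the 250 bases before the RefSeq start site in build GRCm38.p6, read 5′ to 3′ on the gene's own strand; capitals mark GCGTG or its complement CACGC, and TGANNNNGC, the core of the antioxidant response element bound by NRF2, or its complement GCNNNNTCA. Ahrr lies on the minus strand at chr13:74292332-74292581, Nqo1 on the minus strand at chr8:107403206-107403455, Cyp1b1 on the minus strand at chr17:79715062-79715311 and Tiparp on the plus strand at chr3:65528197-65528446.
Ahrr: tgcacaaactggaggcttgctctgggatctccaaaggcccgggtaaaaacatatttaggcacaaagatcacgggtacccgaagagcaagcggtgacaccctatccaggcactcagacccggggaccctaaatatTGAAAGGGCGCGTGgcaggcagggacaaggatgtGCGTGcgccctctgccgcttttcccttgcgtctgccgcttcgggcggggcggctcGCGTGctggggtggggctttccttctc
Nqo1: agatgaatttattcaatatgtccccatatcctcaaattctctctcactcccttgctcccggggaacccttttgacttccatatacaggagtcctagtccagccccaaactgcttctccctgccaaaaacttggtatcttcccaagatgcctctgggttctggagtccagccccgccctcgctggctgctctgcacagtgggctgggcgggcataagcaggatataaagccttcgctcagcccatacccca
Cyp1b1: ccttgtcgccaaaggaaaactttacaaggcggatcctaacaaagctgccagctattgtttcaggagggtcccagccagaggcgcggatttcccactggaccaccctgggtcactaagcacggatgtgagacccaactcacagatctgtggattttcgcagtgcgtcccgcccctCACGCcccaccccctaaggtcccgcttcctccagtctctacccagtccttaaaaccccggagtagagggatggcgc
Tiparp: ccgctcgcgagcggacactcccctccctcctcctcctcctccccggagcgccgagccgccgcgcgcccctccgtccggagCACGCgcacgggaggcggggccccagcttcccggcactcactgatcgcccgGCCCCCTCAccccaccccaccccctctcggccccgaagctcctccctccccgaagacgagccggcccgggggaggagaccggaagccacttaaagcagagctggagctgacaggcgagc

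Of the 10 genes, 9 had a promoter in the RefSeq table. The Ahrr window held GCGTG 3 times, and 1 of these lay in the longer form TNGCGTG. Arnt, Cyp1b1 and Tiparp held GCGTG 1 time each, and the other 5 windows, Nqo1 among them, held none. Among all 32851 promoter windows of this length, 28.2% held GCGTG on either strand and 4.10% held TNGCGTG. TGANNNNGC was present in the windows of Ahrr, Arnt, Tiparp, Ugt1a6a, Ugt1a7c and Akr1c13 and in 35.2% of all windows; in Ahrr it ended at the base before a GCGTG. These letter matches are a description of the windows, not of binding. Sequence outside the 250 bases was not searched, so a window without a match does not mean a gene without the motif.

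Totals ran from 59651087 to 65576084 counts per library. Of the endothelial markers, 10 of 11 had an FPKM (read fragments relative to exon length and library size) of at least 1, and their summed level was 1174 to 1175 in the control libraries and 1113 to 1178 in the mitochondria libraries. Of 6 osteocyte markers in the table only Gja1, a gap junction gene that many cells express, passed, while Bglap was at 0 and Sost, Mepe, Phex and Pdpn had at most 17 counts in any library. The 5 leukocyte markers summed to an FPKM of 36.9 to 39.01 in the control and 49.8 to 58.1 in the mitochondria libraries, nearly all of it Cd68, a lysosomal gene that was called higher (log2 fold change 0.55, edgeR adjusted p = 0.00212), while Ptprc, which defines leukocytes, had at most 10 counts. Of 6 mural markers only Acta2 passed, and none of 3 astrocyte markers did. A ribosomal RNA row took 3.20%, 1.58% and 2.85% of the counts in control libraries 1 to 3, and 3.93%, 7.10% and 5.89% in mitochondria libraries 1 to 3. That share differed between the groups with no overlap, so it and the treatment cannot be told apart here. Fits with it as a covariate are given for the members called in edgeR, Cyp1b1, Ugt1a7c, the merged rows and the further pathway genes as a whole. Such fits have wider standard errors (for the Nqo1 log2 fold change 0.09 against 0.05 in edgeR), and no cause is read from a call lost in them. Whether the 3 libraries of a group are separate cultures is not stated, so each p reflects the spread among these libraries, which may be technical. In bulk RNA fewer cells with a transcript and less of it per cell cannot be told apart.

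After mitochondria, 4 of the 10 genes were higher at an adjusted p under 0.05 in edgeR's quasi-likelihood test over all genes, and none was lower: Nqo1, Ahrr, Arnt2 and Akr1c13. Of all genes tested 2.09% were called, made up of 0.986% higher and 1.1% lower, and nothing is read from the members' count against this since they were picked on it. The receptor itself, its main partner Arnt and the feedback enzyme Tiparp had fold changes near 1. The members' log2 fold changes ran from -0.05 (Ahr) to 1.12 (Ugt1a6a) with a median of 0.29, beside a median of 0.0011 over all genes. Of the 10, 8 were above 0, beside 50.4% of all genes tested. In 6 genes all mitochondria libraries lay above all control libraries, a pattern that 10.1% of all genes tested shared and 11% showed in the other direction (21.1% in all).

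**Figure D1:**
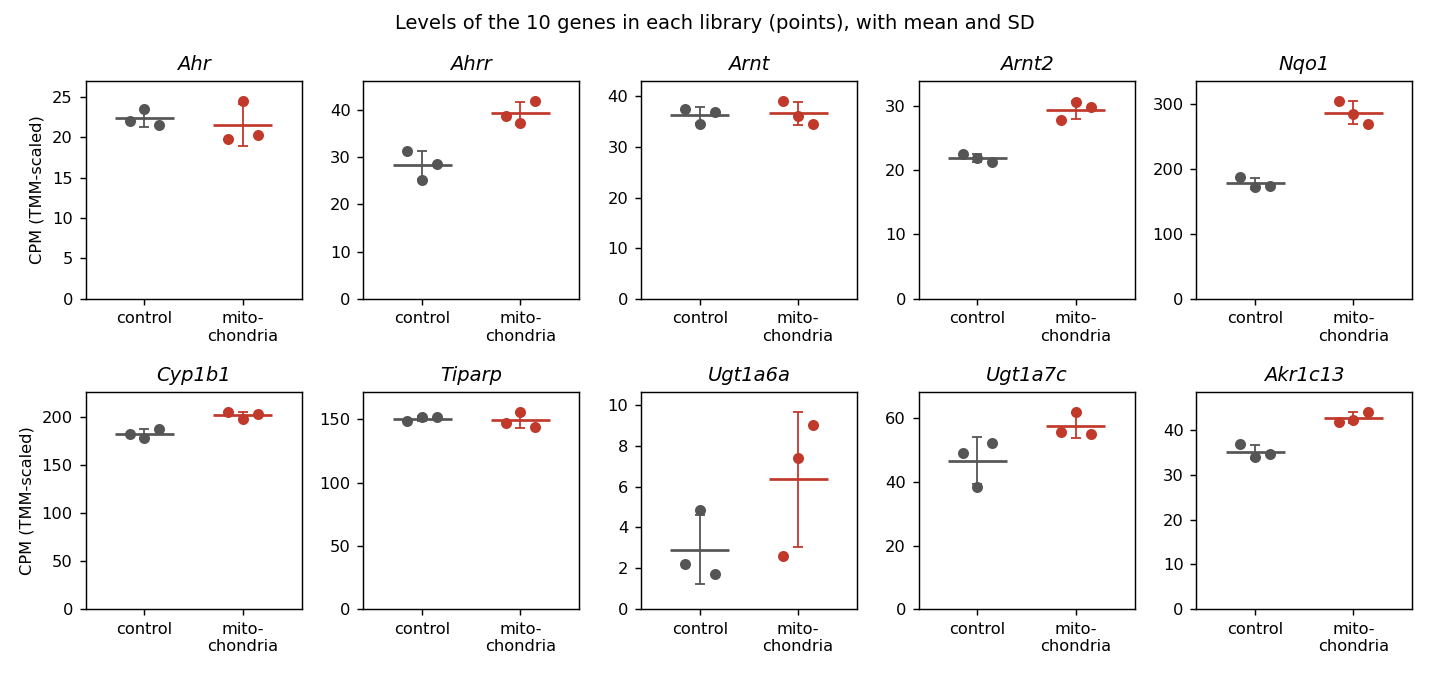
Level of each of the 10 genes in CPM (TMM-scaled; vertical axis from 0, its own range in each panel) in the 3 control and the 3 mitochondria libraries (points), with the group mean (line) and SD (bar). The mitochondria points lie above every control point for Ahrr, Arnt2, Nqo1, Cyp1b1, Ugt1a7c and Akr1c13, while the groups overlap for Ahr, Arnt, Tiparp and Ugt1a6a.

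Nqo1 encodes NAD(P)H:quinone oxidoreductase, which reduces quinones by a paired electron transfer and answers both to AHR and to NRF2, the factor of the antioxidant response. Its level in CPM (counts per unit of library size, with edgeR's TMM factors) was 188, 172 and 174 in control libraries 1 to 3, and 305, 285 and 270 CPM in mitochondria libraries 1 to 3. The lowest mitochondria library thus stood well above the highest control library. The group means were 178 ± 8.62 and 287 ± 17.5 CPM (SD, n = 3 each), a 1.61-fold difference. In edgeR the log2 fold change was 0.69 with a standard error (SE) of 0.05 and an adjusted p of 4.75e-05, the 3rd lowest p of all genes tested. Nqo1 kept an adjusted p under 0.05 in all 17 other fits, with log2 fold changes from 0.53 to 0.73. With the ribosomal share as covariate it was 0.69 with an adjusted p of 0.0450 in edgeR.

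Ahrr encodes the AHR repressor. It stood at 31.2, 25.2 and 28.5 CPM in the control libraries and at 38.8, 37.2 and 41.9 CPM in the mitochondria libraries. Its groups did not overlap, and the gap between the highest control and the lowest mitochondria library was smaller than that of Nqo1 in proportion. Means were 28.3 ± 3.02 and 39.3 ± 2.41 CPM (SD, n = 3 each), and in edgeR the log2 fold change stood at 0.47, with an SE of 0.09 and an adjusted p of 0.0193. The edgeR adjusted p rose to 0.0719 without control 2, to 0.0862 without control 3 and to 0.0942 without mitochondria 3, and was under 0.05 when any of the other 3 libraries was left out. With the ribosomal share as covariate the log2 fold change was 0.30 and the edgeR adjusted p 0.790.

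Ahr itself, the ligand-binding subunit, measured 22.0, 23.5 and 21.5 CPM in the control libraries and 19.7, 24.5 and 20.3 CPM in the mitochondria libraries. The groups overlapped, with mitochondria 2 the highest and mitochondria 1 the lowest of all 6. Its log2 fold change was -0.05 (SE 0.10, edgeR adjusted p = 0.850), so a change of its transcript was not detectable against the spread of the mitochondria libraries.

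Arnt is the partner that AHR needs for DNA binding and that HIF-1α uses as well. It stood at 37.5, 34.5 and 36.9 CPM in the control libraries and at 39.1, 36.1 and 34.6 CPM in the mitochondria libraries, with a log2 fold change of 0.01 (SE 0.07, edgeR adjusted p = 0.947). Arnt2, a close paralogue best known from neural tissue, stood at 22.5, 21.9 and 21.2 CPM against 27.8, 30.5 and 29.8 CPM. So the partner pair split: Arnt overlapped between the groups, and Arnt2 was higher in each mitochondria library than in any control library. Arnt2 means were 21.9 ± 0.654 and 29.4 ± 1.40 CPM (SD, n = 3 each), with a log2 fold change of 0.43 (SE 0.08, edgeR adjusted p = 0.0233); the difference between the fold changes of Arnt2 and Arnt was not tested. Its edgeR adjusted p was 0.0515 without control 1, 0.0830 without control 2, 0.110 without control 3 and 0.0958 without mitochondria 3, and under 0.05 without mitochondria 1 or mitochondria 2. With the ribosomal share as covariate the Arnt2 log2 fold change was 0.35 and the edgeR adjusted p 0.762.

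Cyp1b1 encodes the cytochrome P450 that oxidises polycyclic hydrocarbons and oestradiol. Its level was 182, 178 and 188 CPM in the control libraries and 206, 198 and 203 CPM in the mitochondria libraries. The groups did not overlap, but the step was small: a log2 fold change of 0.15 (SE 0.04) with an edgeR adjusted p of 0.0705, which misses the threshold. DESeq2 gave it an adjusted p of 0.00471, and edgeR 0.0437 when testing was limited to genes whose FPKM averaged 5 or more. With the ribosomal share as covariate its log2 fold change was 0.14 and its edgeR adjusted p 0.790. On TPM (the FPKM values rescaled to 1 total in every library), where the median of all genes moved to -0.15, the Cyp1b1 log2 difference was -0.01.

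Tiparp, the feedback ADP-ribosyltransferase, was the flattest of the target genes. It measured 149, 152 and 152 CPM in the control libraries and 148, 156 and 144 CPM in the mitochondria libraries, and the mitochondria libraries held both the highest and the lowest value. The log2 fold change was -0.01 (SE 0.04, edgeR adjusted p = 0.910). Tiparp, Ahr, Arnt2, Ugt1a6a and Ugt1a7c each overlap at least 1 annotated gene on the opposite strand. Whether counting used strand is not given in the sources used here.

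Ugt1a6a and Ugt1a7c encode UDP-glucuronosyltransferases, which attach glucuronic acid to phenols and other compounds. Both come from a single locus on chromosome 1 (Ugt1a7c at chr1:88095062-88220002 and Ugt1a6a at chr1:88134809-88218997, plus strand, GRCm38), where a set of alternative first exons is spliced to the same downstream exons, the first of which is chr1:88215044-88215175. The joins between each gene's own first exon and this shared exon, 24 bases on either side with the shared exon in capitals, are shown because they say which reads can tell the genes apart (GENCODE M21 transcripts on GRCm38).
Ugt1a7c: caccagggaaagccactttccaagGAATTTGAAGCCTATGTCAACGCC
Ugt1a6a: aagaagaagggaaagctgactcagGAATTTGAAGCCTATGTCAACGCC
Ugt1a6b: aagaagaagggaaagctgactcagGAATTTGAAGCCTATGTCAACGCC

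The joins of Ugt1a6a and of its neighbour Ugt1a6b read the same over all 48 bases. Every 50-base window of the longest Ugt1a6a coding transcript (2248 of 2248) also occurred in a transcript annotated to Ugt1a7c. An annotated Ugt1a7c transcript holds the 859-base Ugt1a6a exon at chr1:88138473-88139331. Of the longest Ugt1a7c transcript, 69.3% of windows were shared with another gene. That transcript is the one holding the Ugt1a6a exon and lacks the Ugt1a7c first exon shown above. Its last exon runs to chr1:88220002, beyond the 88218997 of the longest Ugt1a6a transcript. Its unshared windows therefore do not measure what sets the Ugt1a7c first exon apart. How reads shared between these rows were assigned is not given in the sources used here, so the split among them is uncertain.

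Taken row by row, Ugt1a6a stood at 2.22, 4.83 and 1.72 CPM in the control libraries and at 2.62, 7.41 and 8.99 CPM in the mitochondria libraries. Control 2 lay above mitochondria 1, so the groups overlapped, and the row had an FPKM of at least 1 in 3 libraries only (control 2, mitochondria 2 and mitochondria 3). Its log2 fold change of 1.12 was the highest of the 10 genes, and its SE of 0.43 was the widest (edgeR adjusted p = 0.233). Ugt1a7c stood at 49.1, 38.3 and 52.3 CPM against 55.7, 62.1 and 54.9 CPM, without overlap (log2 fold change 0.31, SE 0.10, edgeR adjusted p = 0.151). With the ribosomal share as covariate the Ugt1a7c value was -0.04. Control 2, the lowest library of Ugt1a7c, was the highest of Ugt1a6b: that row held 5.69, 12.8 and 1.64 CPM in the control libraries and 7.71, 3.19 and 2.23 CPM in the mitochondria libraries.

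Summed over its 6 rows in the table, the Ugt1a locus varied far less than its larger rows among the control libraries. The sum was 57.2, 55.9 and 55.8 CPM in the control libraries, a coefficient of variation of 1.44%, although the share given to Ugt1a7c ran from 68.4% (control 2) to 93.8% (control 3). In the mitochondria libraries the sum was 66.2, 73.4 and 66.1 CPM, a coefficient of variation of 6.13%. There the sum (SD 4.20 CPM) varied about as much as the Ugt1a7c row (57.6 ± 3.92 CPM, SD, n = 3). All mitochondria libraries lay above all control libraries, with means of 68.6 ± 4.20 and 56.3 ± 0.809 CPM (SD, n = 3 each). The log2 ratio was 0.28, with a two-sided exact permutation p of 0.1, the smallest that 3 libraries against 3 allow. With the 6 rows merged in the fit over all genes, an analysis added after the rows had been seen, edgeR gave 0.28 (SE 0.05, adjusted p = 0.0186). That adjusted p was 0.0761 in edgeR without control 2, 0.0896 without control 3, and 0.782 with the ribosomal share as covariate (log2 fold change 0.20).

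**Figure D2:**
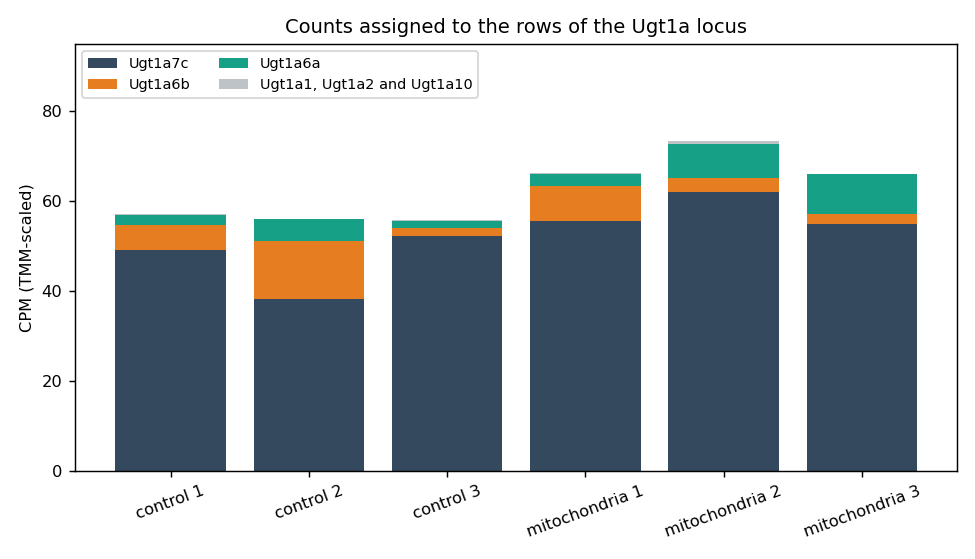
CPM (TMM-scaled, vertical axis from 0) assigned to each row of the Ugt1a locus in each of the 6 libraries, stacked. The stack heights of the control libraries differ little (55.8 to 57.2 CPM) while the parts given to Ugt1a6b and Ugt1a7c differ widely, and the 3 mitochondria stacks (66.1 to 73.4 CPM) are taller.

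Akr1c13 encodes an aldo-keto reductase, of the family that reduces carbonyl groups of steroids and xenobiotics. It lies on chromosome 13 beside Akr1c12, and the coding sequences of the pair, 972 bases each, differ at 37 positions (96.2% identity). A stretch of 60 bases rich in differences, coding positions 343 to 402 counted from 1 at the first base of the start codon, is shown with the differing bases in capitals (GENCODE M21), since the reads that tell the pair apart come from such places.
Akr1c13: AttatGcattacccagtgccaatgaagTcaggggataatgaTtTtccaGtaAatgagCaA
Akr1c12: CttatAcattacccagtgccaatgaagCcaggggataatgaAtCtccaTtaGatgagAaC

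The longest run that the coding sequences share is 228 bases, and 28.6% of the 50-base windows of the Akr1c13 transcript occur in Akr1c12 too. Akr1c13 stood at 36.9, 34.0 and 34.5 CPM in the control libraries and at 41.8, 42.1 and 44.1 CPM in the mitochondria libraries. The groups were apart and tight within themselves, with a log2 fold change of 0.28 (SE 0.06, edgeR adjusted p = 0.0406). Akr1c12 held at most 2.44 CPM in any library, so the pair's sum followed Akr1c13. The sum rose from 36.9 ± 1.43 to 44.9 ± 1.27 CPM (SD, n = 3 each) in the merged edgeR fit (log2 fold change 0.28, SE 0.06, adjusted p = 0.0298); the exact permutation p of the sum was 0.1. The merged call was kept without control 1 (edgeR adjusted p = 0.0495), was 0.0638 to 0.137 without each of the other 5 libraries, and was 0.789 with the ribosomal share as covariate. The Akr1c13 call did not outlast the loss of any library: its edgeR adjusted p was 0.0589 without control 1, 0.147 without control 2, 0.155 without control 3, 0.0802 without mitochondria 1, 0.0738 without mitochondria 2 and 0.162 without mitochondria 3. With the ribosomal share as covariate its log2 fold change was 0.20 (edgeR adjusted p = 0.817).

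The deposited FPKM values, which allow for transcript length, put the genes in order of level. Nqo1 stood first with a mean of 103 in the control and 160 in the mitochondria libraries, above 97.5% of the genes tested. Tiparp (31.2 and 29.6), Cyp1b1 (28.2 and 30.0) and Akr1c13 (22.1 and 25.7) followed, then Ugt1a7c (9.94 and 11.8). The receptor machinery was lower: Arnt at 4.08 and 3.96, Ahr at 3.27 and 3.01, Ahrr at 2.70 and 3.60, and Arnt2 at 2.56 and 3.30. Ugt1a6a was last with 0.612 and 1.26, subject to the uncertain split of its locus. Among neighbours in this order, Ahrr and Arnt2 overlapped in both groups, and Tiparp and Cyp1b1 as well as Ahr and Ahrr overlapped in the mitochondria libraries only.

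**Figure D3:**
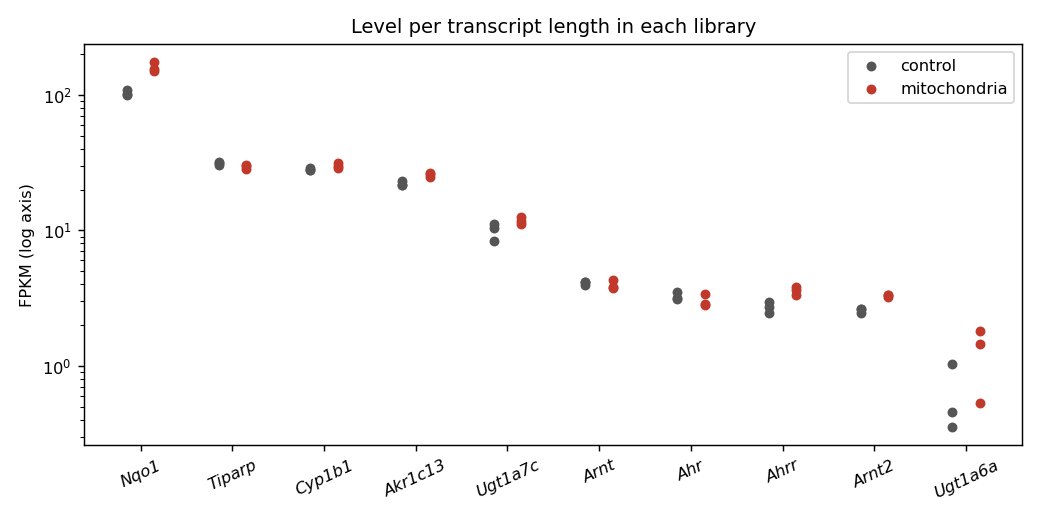
Deposited FPKM of each gene (log axis) in the 3 control (grey) and 3 mitochondria (red) libraries, with genes ordered by their control mean. Nqo1 lies far above the other enzymes, and the receptor, its partners and its repressor form a group whose control means run from 2.56 (Arnt2) to 4.08 (Arnt).

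Set against each other within a library on the FPKM scale, the ratio of repressor to receptor was higher in every mitochondria library than in any control library. The Ahrr to Ahr ratio was 0.926, 0.700 and 0.866 in the control libraries and 1.28, 0.991 and 1.35 in the mitochondria libraries, so it was below 1 in each control library and above 1 in 2 of the 3 mitochondria libraries. The Arnt2 to Arnt ratio had means of 0.628 and 0.838, and the Nqo1 to Tiparp ratio had means of 3.31 and 5.39. The Ahr to Arnt ratio, with means of 0.802 and 0.767, overlapped between the groups. These ratios repeat the counts above in another form and were not tested.

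Across the other tests, filters and scalings, the members fell into 3 kinds. Nqo1 passed in each; Ahrr, Arnt2 and Akr1c13 passed in some; and Ahr, Arnt, Tiparp and Ugt1a6a passed in none of those run. Cyp1b1 and Ugt1a7c were in between, with an adjusted p under 0.05 for Cyp1b1 in DESeq2, in edgeR on the more abundant genes alone and in edgeR with the replicate block, and for Ugt1a7c in DESeq2 alone (0.0303). Over all genes tested in each fit, DESeq2 called 5.3%, edgeR on the more abundant genes 3.57%, edgeR with the block 3.5%, edgeR with the ribosomal covariate 0.0444% and limma on FPKM 0.347%. The limma fits on log2(FPKM + 1), whose fold changes are damped for low genes, called, of the members, Nqo1 only (log2 difference 0.62, adjusted p = 0.0147).

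**Figure D4:**
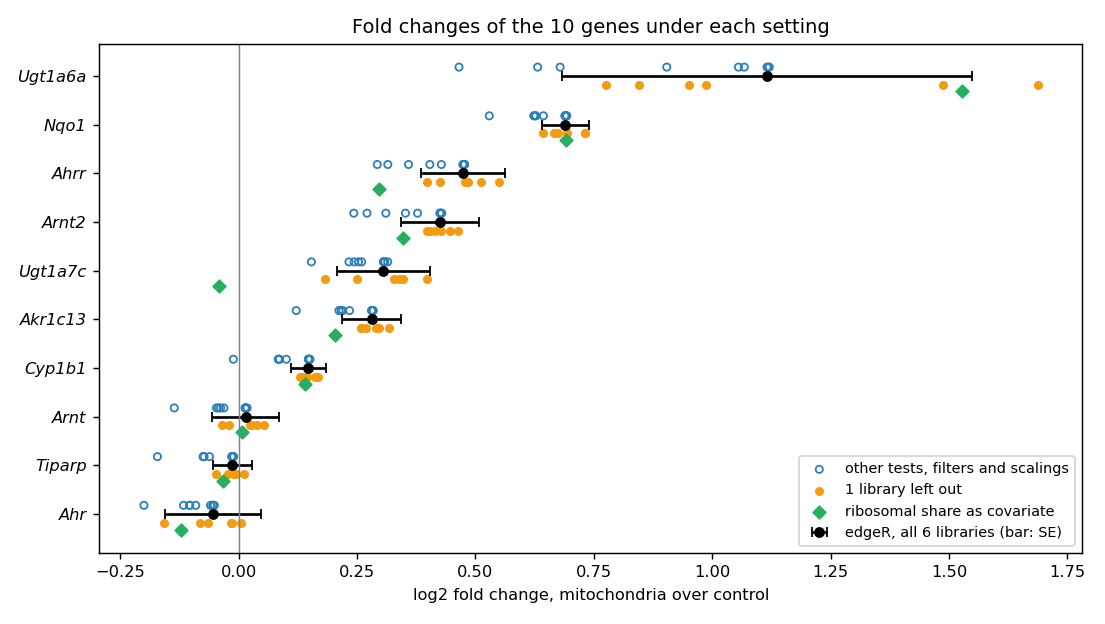
Log2 fold change of each gene (horizontal axis, mitochondria over control) in edgeR on all 6 libraries with its SE (black), in other tests, filters and scalings (open circles), with 1 library left out (orange) and with the ribosomal share as covariate (green diamonds). Nqo1 stays between 0.53 and 0.73 and Ugt1a6a is spread from 0.47 to 1.69, while the Ugt1a7c diamond lies below 0.

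Around these 10 genes, 124 further genes of the AHR pathway and of drug metabolism were tested in 11 lists. The lists were written from background knowledge, but with earlier results of these data known, so their counts and medians are a description. Of the 124 genes, 8 were higher and 2 lower in edgeR, beside 0.986% of all genes tested called higher and 1.1% lower. These shares also stand beside the edgeR count of each list below. At an unadjusted p under 0.05 were 1812 of all 11255 genes tested in edgeR and 1940 in DESeq2. Those numbers stand beside the unadjusted counts of the lists below. The median log2 fold change of the 124 genes was 0.04 beside 0.0011 over all genes. The split turned with the scaling, and the calls over all genes moved towards lower too. With library totals alone 5 of the 124 were higher and 7 lower in edgeR, beside 61 and 292 of 11255 (3.14% called). In limma on log2(TPM + 1) 2 of the 124 were higher and 5 lower, beside 20 and 308 of 11255 (2.91% called). Upstream of transcription, the 18 chaperones and coregulators of AHR gave 1 call, and it was lower: Hsp90ab1, an HSP90 isoform that holds the receptor, fell from 3257, 3143 and 3211 CPM to 3010, 2904 and 2955 CPM (log2 fold change -0.12, edgeR adjusted p = 0.0385). Its sister Hsp90aa1 was at -0.14 with an edgeR adjusted p of 0.0539. Leaving out any library took the Hsp90ab1 call away, with edgeR adjusted p between 0.0525 and 0.180. No other bHLH-PAS factor among the 4 tested was called by edgeR (1 at an unadjusted p under 0.05, 1 called by DESeq2); Epas1, the hypoxia factor of endothelium, had the lowest p (log2 fold change 0.19, edgeR adjusted p = 0.139) and was called with the replicate number as a block (edgeR adjusted p = 0.0230).

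Of 29 other AHR targets listed, 11 passed the filter; 1 was called higher and 1 lower by edgeR, beside 2.09% of all genes called, with a median log2 fold change of -0.05. The classical marker Cyp1a1 had 0 to 27 counts per library, Cyp1a2 0 to 12 and Aldh3a1 0 to 18, below the filter in each case, so no direction can be given for them. Gsta1, a glutathione transferase that is also an NRF2 target, stood at 5.94, 4.12 and 5.91 CPM in the control libraries and at 9.67, 16.5 and 10.4 CPM in the mitochondria libraries. All of its mitochondria libraries were above all control libraries, with a log2 fold change of 1.20 (edgeR adjusted p = 0.0169, but 0.0703 without control 2 and 0.0590 without control 3). The Gsta1 log2 fold change was 0.42 with the ribosomal share as a covariate (edgeR adjusted p = 0.841). Ptgs2, the inducible cyclooxygenase, went the other way, from 1735, 1833 and 1660 CPM to 1419, 1521 and 1345 CPM (log2 fold change -0.29, edgeR adjusted p = 0.00884), and kept its edgeR call whichever library was left out. Ptgs2 was called in 12 of 17 other fits. It was called neither in limma on FPKM nor in edgeR with no filter or with the ribosomal share as covariate.

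Among the conjugating enzymes of phase II, 3 of 21 were higher and none was lower, beside 0.986% and 1.1% of all genes tested. The list's median log2 fold change was 0.28. That median was 0.16 without control 1, 0.18 without control 2, 0.17 without mitochondria 3 and 0.14 with the ribosomal share as a covariate. Besides Gsta1 these were Gstp1, a further glutathione transferase (0.35, edgeR adjusted p = 0.00873), and Mgst1, its microsomal relative (0.31, edgeR adjusted p = 0.0234). Gstp1 measured 51.1, 48.0 and 48.3 CPM in the control libraries against 59.4, 66.3 and 62.8 CPM in the mitochondria libraries, and its edgeR adjusted p was 0.0512 without control 3. The Mgst1 call was lost whichever library was left out, with edgeR adjusted p between 0.0515 and 0.0952. Of the 25 phase I enzymes edgeR called 1 higher, Ephx1, the microsomal epoxide hydrolase (log2 fold change 0.20, edgeR adjusted p = 0.0176), and it kept its call without control 1 or mitochondria 2 only (edgeR adjusted p between 0.0506 and 0.0839 without control 2, control 3, mitochondria 1 or mitochondria 3). DESeq2 called 4 of the 25 higher (5.3% of all genes called), with Cyb5a, Aldh2 and Adh7 besides (DESeq2 adjusted p = 0.00693, 0.00469 and 0.0192). In edgeR 2 were called with the replicate block (3.5% of all genes called), with the filter at a mean FPKM of 5 (3.57% of genes tested there), or without control 1 (145 of 11255 genes). The list's median was 0.13, and 22 of 25 log2 fold changes were above 0, beside 50.4% over all genes tested.

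No further aldo-keto reductase among the 10 tested was called by edgeR (median log2 fold change 0.12; 3 at an unadjusted p under 0.05, 1 called by DESeq2), and Akr1a1, the most abundant by CPM of the 4 with the lowest p, was at 0.12 (edgeR adjusted p = 0.140, but 0.0283 with the replicate block). Of the other UDP-glucuronosyltransferases and the enzymes that make their substrate, only Ugt1a6b, Ugdh and Ugp2 could be tested, and neither the TMM-scaled edgeR fit nor DESeq2 called any of them (1 at an unadjusted p under 0.05). Ugdh, which makes UDP-glucuronic acid, was at -0.09 there, and it was called lower in edgeR scaled by library totals (-0.14, edgeR adjusted p = 0.0484) and in limma on log2(TPM + 1) (-0.25, limma adjusted p = 0.0490). Among 8 efflux pumps and anion carriers, Abcc4 (0.25, edgeR adjusted p = 0.0112) and Abcc1 (0.16, edgeR adjusted p = 0.0270), both exporters of conjugated compounds, were higher. Over all genes tested 0.986% were called higher. The Abcc4 edgeR adjusted p was 0.0532 without control 2 and 0.0656 without control 3, and Abcc1 kept its call only without mitochondria 2 (0.0609 to 0.118 without each of the other 5 libraries). Among 15 other PARP family genes, the relatives of Tiparp, Parp14 was higher (0.49, edgeR adjusted p = 0.0434), with a call kept only without mitochondria 2 (edgeR adjusted p between 0.0970 and 0.169 without each of the other 5).

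Genes that make or carry the tryptophan-derived ligands gave 1 call among 5 tested. Slc3a2, the heavy chain of the large amino acid transporter, was at 0.21 (edgeR adjusted p = 0.0190), and its edgeR adjusted p was 0.0808 without control 2 and 0.110 without control 3; its partner Slc7a5 was at -0.12 (edgeR adjusted p = 0.573). The 9 tested genes of NRF2 and its regulators gave no call in edgeR or DESeq2 (0 at an unadjusted p under 0.05 in edgeR, 1 in DESeq2): Nfe2l2, which encodes NRF2, stood at 176, 179 and 177 CPM against 177, 169 and 179 CPM, and Keap1, its inhibitor, was at -0.06 (edgeR adjusted p = 0.632). With the ribosomal share as covariate none of the 124 genes was called by edgeR. Of the 124, 18 had an unadjusted p under 0.05 in that fit, beside 724 of all 11255 genes tested. On TPM the medians of all these lists except phase II (0.12) were below 0, where the median of all genes was -0.15.

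**Figure D5:**
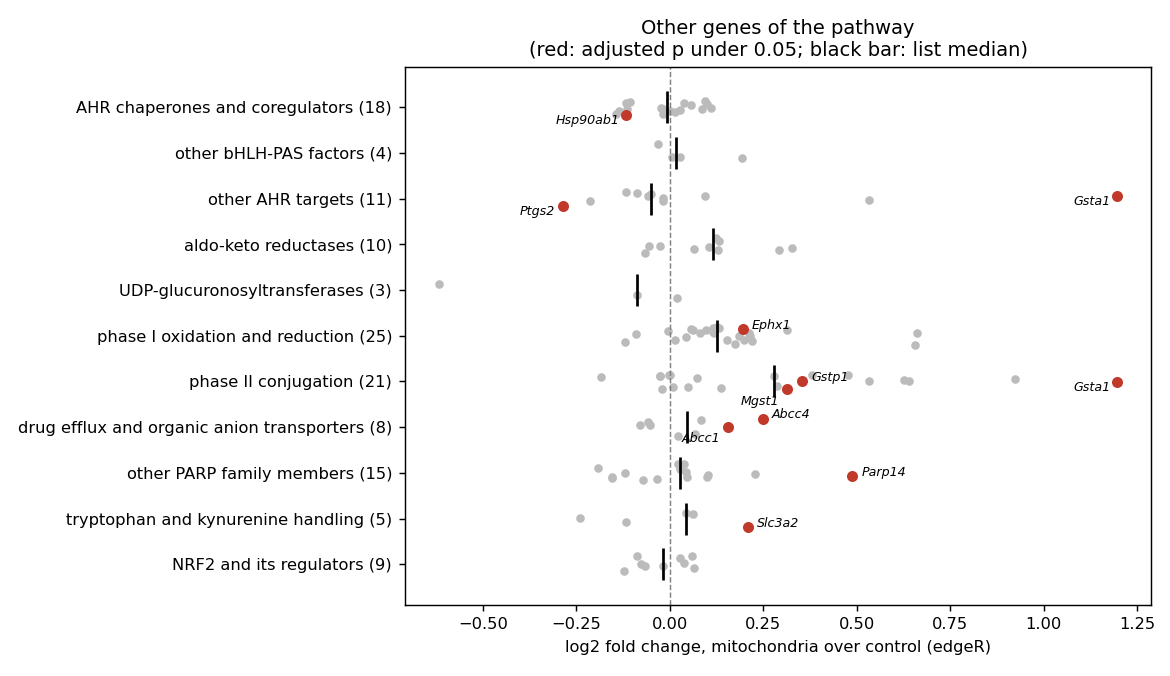
Log2 fold change (mitochondria over control, edgeR) of each tested gene of 11 lists around the AHR pathway, with the number tested in parentheses, called genes in red and named, the list median as a black bar and the median of all genes tested as a dashed line. The medians are 0.28 for phase II (0.16 without control 1), 0.13 for phase I and 0.12 for aldo-keto reductases (0.076 without mitochondria 1), and the chaperone, other-target and NRF2 lists lie near 0.

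Likeness to Nqo1 across the 6 libraries was taken as the root mean square difference of gene-centred log2(CPM + 0.5). It was ranked among tested protein-coding genes only, passing over predicted gene models and names ending in Rik. The nearest were Epop (0.0861), Snapc5 (0.0938), Srxn1 (0.0973), Tgfb3 (0.107) and Sox18 (0.118). Srxn1, the sulfiredoxin that restores oxidised peroxiredoxins, measured 132, 114 and 128 CPM in the control libraries and 187, 176 and 189 CPM in the mitochondria libraries. The Srxn1 log2 fold change was 0.56 (SE 0.05, edgeR adjusted p = 3.80e-04). These genes were picked for likeness to Nqo1 in these same libraries, so a higher level after mitochondria follows from that choice. Their fold changes and p-values are a description. Sox18, an endothelial transcription factor, stood at 36.9, 29.2 and 33.5 CPM against 51.9, 45.6 and 43.6 CPM. Epop was the nearest of the genes ranked but was itself not called (edgeR adjusted p = 0.0813). It stood at 2.39 to 2.69 CPM in the control and 3.96 to 4.28 CPM in the mitochondria libraries.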

How the data were processed

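RNA was sequenced from 3 control and 3 mitochondria libraries of bEnd.3 cells, made with a stranded mRNA kit per the labels' protocols and grouped by the treatment label. The deposited table holds, per the file headers, a raw count and an FPKM value per gene and library, on GRCm38. Per the submitters' processing notes the authors' tools included HISAT2 2.2.1 and StringTie 2.1.6, and also cutadapt 1.9, edgeR and DESeq2; how each was set, and how multi-mapped or antisense reads were counted, is not given in the sources used here.

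Rows reaching FPKM 1 in 3 or more libraries (11255) were tested by the two-sided quasi-likelihood test of edgeR 4.0.16 under R 4.3.3, after TMM scaling, with Benjamini-Hochberg adjustment over all rows tested and a threshold of 0.05. The procedure was tested on simulated data. CPM are counts over TMM-scaled totals; all fold changes are relative to that scaling. Alternatives were DESeq2 1.42.0, limma 3.58.1 on log2(FPKM + 1, 0.5 or 0.1) and on TPM rescaled from the FPKM, other scalings and filters, the replicate number as a block, the ribosomal share as a covariate, and each library left out. Merged Ugt1a and Akr1c rows were added after seeing the data. Members and lists were chosen with earlier results of these data known. All 10 members are named, with up to 4 genes of lowest p per list as the pool of other names, the Ugt1a rows, Akr1c12, the 5 genes nearest Nqo1 and the markers; Nfe2l2, Keap1, Cyp1a1, Cyp1a2 and Aldh3a1 were named besides for their role. The values of 1 listed gene are not reported here. Transcripts were compared in GENCODE M21, and promoters come from RefSeq GRCm38.p6. Protein sequences were not used here.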

Additional observations from a re-analysis of the deposited data

How the results depend on the processing

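Calls over all genes numbered 235 (47.2% higher). There were 353 with library totals as the only scaling (17.3% higher), 597 with DESeq2, 39, 39 and 36 with limma on FPKM at pseudocounts 1, 0.5 and 0.1 (17.9% higher at 1), 328 on TPM (6.10% higher), 22 with no filter and 5 with the ribosomal share as covariate; leaving out 1 library gave 68 (without control 3) to 233. Of the members, 4 were called: 1 in each limma fit, with no filter and with the covariate, and 1 to 3 with a library left out. Of the 124 listed genes, 10 were called: 19 with DESeq2, 0 in the limma FPKM fits (30 at an unadjusted p under 0.05), 0 in edgeR with no filter (30 unadjusted) or with the covariate (18 unadjusted), and 1 to 10 with a library left out. Beside these unadjusted counts, all genes had 2064, 2066 and 2067 of 11255 in limma at pseudocounts 1, 0.5 and 0.1. In edgeR they had 2273 of 27651 with no filter and 724 of 11255 with the covariate. With the replicate block, edgeR called 394 genes, 5 members and 16 listed genes. Each library's deviations from its group mean, in log2(CPM + 0.5) over the genes tested, were correlated between control and mitochondria libraries. Same-numbered libraries gave 0.0667, 0.0675 and 0.0352, and libraries of different number gave -0.140 to 0.0800. The numbers were therefore not taken as pairs. The merged Ugt1a rows gave 0.28, with 0.30, 0.28, 0.28, 0.31, 0.23 and 0.31 as each library was left out, and the merged Akr1c pair gave 0.28, with 0.26 to 0.32. Depth limits Cyp1a1, Cyp1a2 and Aldh3a1, with at most 27 counts. Some log2 fold changes changed sign, of genes not called in edgeR on all libraries except Abcc1, and the cause was not tested. With library totals they were -0.031 for Arnt, -0.023 for Arntl, -0.042 for Hif1a and -0.028 for Ugp2. In limma at pseudocounts 1, 0.5 and 0.1 they were -0.038, -0.043 and -0.047 for Arnt, -0.029, -0.032 and -0.034 for Arntl, -0.054, -0.055 and -0.055 for Hif1a, -0.0028, -0.0029 and -0.0029 for Nfe2l1 and -0.037, -0.039 and -0.041 for Ugp2. On TPM they were -0.14 for Arnt, -0.011 for Cyp1b1, -0.0033 for Abcc1, -0.087 for Abcc5, -0.035 for Akr1a1, -0.053 for Akr1b3, -0.13 for Arntl, -0.097 for Got2, -0.15 for Hif1a, -0.10 for Nfe2l1, -0.13 for Ugp2 and -0.055 for Zc3hav1. With the covariate they were -0.042 for Ugt1a7c, 0.024 for Abcb1b, 0.013 for Clock, -0.026 for Hif1a, 0.0052 for Keap1, 0.022 for Nfe2l2, -0.046 for Ugp2 and 1.40 for Ugt1a6b. Leaving out 1 library at a time gave ranges across 0, of -0.16 to 0.0044 for Ahr, -0.035 to 0.053 for Arnt, -0.047 to 0.011 for Tiparp, -0.029 to 0.10 for Arntl, -0.056 to 0.015 for Clock, -0.015 to 0.030 for Hif1a, -0.035 to 0.0058 for Nfe2l2, -0.043 to 0.073 for Ugp2 and -1.31 to 0.26 for Ugt1a6b.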
